A study of Mus musculus with 14 samples.

Results

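A group of 8 genes whose products regulate hepatic fat and sterol synthesis was followed at the RNA level in livers of mice fed krill powder. They are Srebf1 and Srebf2, which encode the sterol regulatory element binding proteins SREBP-1 and SREBP-2, and Mlxipl and Mlx, which encode the carbohydrate response factor ChREBP and its dimer partner. Scap, Insig1 and Insig2, which hold or escort the SREBPs, and Mid1ip1, a regulator of acetyl-CoA carboxylase, complete the set. The members were all probe sets that the platform table lists with exactly 1 of these symbols, 13 of the 45101 probe sets on the array, for 8 of 18193 genes. Liver RNA came from 14 male CBA/J mice, an inbred strain, with 1 mouse per Affymetrix array. From 2 months of age 7 mice ate a diet containing a krill powder extract and 7 a control diet, both based on AIN93M, a purified maintenance diet, at 84 kcal per week, and all were housed singly. The diets held equal total protein and total lipid but differed in amino acid and fatty acid composition, and feeding lasted 3 months, until the mice were 5 months old. Whole liver was used, so fewer cells of a type and less RNA per cell cannot be told apart.

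SREBPs are made as precursors in the membrane of the endoplasmic reticulum, bound to SCAP. When sterols are plentiful INSIG proteins hold SCAP there. When they are scarce SCAP carries the SREBP to the Golgi, where the proteases encoded by Mbtps1 and Mbtps2 release the part that enters the nucleus. SREBP-1 mainly drives genes of fatty acid synthesis, and in liver its gene is induced by insulin and by the oxysterol receptor LXR, and polyunsaturated fatty acids are known to lower its activity. SREBP-2 mainly drives sterol synthesis and uptake. ChREBP binds DNA as a dimer with MLX, responds to sugar metabolites and drives glycolytic and lipogenic genes. These statements are background and no result of the present arrays.

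The stretches before the transcription start are shown for 4 members, the 3 transcription factor genes whose levels the results turn on and Insig1, whose window holds all 3 motifs searched. Each is 250 bases long, from RefSeq on build GRCm38.p6, written 5′ to 3′ on the strand of the gene. Capitals mark 3 motifs searched on both strands: TCACCC, a core shared by many sterol regulatory elements, CCAAT, the box bound by NF-Y, and CACGTG, the palindromic E-box. A motif on the other strand appears as its reverse complement. No motif overlapped another in these windows.
Srebf1, the most downstream of 3 listed starts, chr11:60210472-60210721, minus strand: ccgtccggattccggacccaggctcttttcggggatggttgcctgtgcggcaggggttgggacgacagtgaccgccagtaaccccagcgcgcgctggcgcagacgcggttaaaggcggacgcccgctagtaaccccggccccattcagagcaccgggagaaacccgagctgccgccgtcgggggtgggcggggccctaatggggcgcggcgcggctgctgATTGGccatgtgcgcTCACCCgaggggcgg
Srebf2, chr15:82147019-82147268, plus strand: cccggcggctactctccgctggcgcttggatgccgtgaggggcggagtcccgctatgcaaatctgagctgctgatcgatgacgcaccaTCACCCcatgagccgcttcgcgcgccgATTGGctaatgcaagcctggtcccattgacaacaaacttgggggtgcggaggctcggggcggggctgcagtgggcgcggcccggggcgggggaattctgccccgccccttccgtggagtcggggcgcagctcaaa
Insig1, chr5:28071162-28071411, plus strand: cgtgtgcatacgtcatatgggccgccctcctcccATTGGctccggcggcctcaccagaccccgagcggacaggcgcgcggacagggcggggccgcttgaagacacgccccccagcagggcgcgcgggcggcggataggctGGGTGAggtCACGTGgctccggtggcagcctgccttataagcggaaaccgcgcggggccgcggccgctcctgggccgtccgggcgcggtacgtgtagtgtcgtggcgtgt
Mlxipl, the upstream of 2 listed starts, chr5:135089640-135089889, plus strand: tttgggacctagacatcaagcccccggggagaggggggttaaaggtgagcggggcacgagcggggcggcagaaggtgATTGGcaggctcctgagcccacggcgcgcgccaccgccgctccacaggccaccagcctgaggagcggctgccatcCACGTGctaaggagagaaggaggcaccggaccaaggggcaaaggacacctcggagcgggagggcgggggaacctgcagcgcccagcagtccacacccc

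RefSeq windows were found for all 8 genes, 14 windows in all, since 4 genes have several listed starts. TCACCC occurred in windows of 4 genes, Srebf1, Srebf2, Insig1 and Insig2, in 5 of the 14 windows, against 13.8% of all 32851 windows. CCAAT occurred in 7 of the 14 windows, against 33.8% of all, and CACGTG in 4, those of Mlxipl, Mlx, Scap and Insig1, against 6.02% of all. In the Srebf1 window shown, the CCAAT box began 30 bases and the TCACCC core 15 bases before the start. A match describes letters in a window and is not a binding site shown here.

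Signal is given in the deposited linear units and was analysed as log2(signal + 16). Each log2 change is the krill mean minus the control mean, SE is its moderated standard error from limma, and a probe set was called when its Benjamini-Hochberg adjusted p over 45037 probe sets was under 0.05. The number of arrays limits the precision, and biological and technical spread cannot be separated, with 1 array for each mouse.

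Quality measures were not alike between the diets. The 3'/5' signal ratio, which rises as RNA is shortened, lay higher on all 7 krill than on all 7 control arrays for actin and for pyruvate carboxylase (two-sided exact permutation p = 0.000583, at the lower limit for 3432 assignments, adjusted over 5 measures to 0.00146). For Gapdh the ratio overlapped between the diets, with a log2 difference of 0.21 (two-sided exact permutation p = 0.193). Hybridisation spike-ins, control transcripts added in equal amounts, stood between 14.1 and 14.3 (mean log2 signal) on krill replicates 2, 4, 5 and 7, between 12.9 and 13.2 on krill replicates 1, 3 and 6, and between 12.6 and 13.2 on the control arrays. Olfactory and vomeronasal receptors, 80 probe sets of genes that liver is not known to use, had a median signal of 131 to 180 on krill replicates 2, 4, 5 and 7, of 29.9 to 70.2 on krill replicates 1, 3 and 6, and of 20.1 to 37.1 on control arrays. The part of these measures in the results was not tested, and values without krill replicates 2, 4, 5 and 7 are given where leaving them out ends a call or moves a called change by over 1.5 times. All 10 listed hepatocyte markers exceeded the 90th percentile of the receptors on at least 7 arrays, and their summed signal was 446824 to 800045 on krill and 366455 to 498226 on control arrays. The 4 adipocyte and 4 cholangiocyte markers did not exceed it, with sums of 138 to 685 and 207 to 677 on krill arrays and of 80.8 to 577 and 253 to 395 on control arrays. Macrophage markers, 9 of 10 above that level, summed to 10819 to 21215 on krill and 9764 to 13141 on control arrays. Lymphocyte markers, 1 of 5 above it, summed to 564 to 1448 on krill and 424 to 654 on control arrays. Pancreatic acinar markers, 2 of 4 above it, Cel and Cela1, summed to 6124 to 19152 on krill and 2663 to 5177 on control arrays. Their part in the results was not tested. Macrophage, endothelial, stellate and erythroid sums overlapped between the diets.

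Mlxipl, Scap and Srebf1 fell on the krill diet, Mlxipl 6.51-fold, Scap 3.43-fold and Srebf1 2.57-fold. Both Srebf2 probe sets were called lower as well, but 4 and 3 of their 7 krill arrays lay under the receptor median, so the size of their change is not settled. Over krill replicates 1, 3 and 6 alone, 1452174_at was 1.54-fold lower and 1426744_at was not called (limma adjusted p = 0.0529). For 1426744_at that fit also left out krill replicate 7, which lay above the receptor median. Mlx, Insig1 and Mid1ip1 did not pass the test, and 1 of 3 Insig2 probe sets did. In all, 6 of the 13 probe sets were called lower and 0 were called higher, where limma called 12.5% of all 45037 probe sets lower and 16% higher. None of the 13 was higher at an unadjusted p under 0.05 either, and of the 7 that did not pass, 0 had one. In either direction 6 of the 13 had such a p, and so did 18837 of all 45037 probe sets. Among the 22519 probe sets of higher mean signal, which holds 12 of the 13, limma called 22.7% lower and 17.2% higher. The median log2 change was -0.49 over the 13 probe sets and 0.32 over all probe sets. Over the 22519 probe sets of higher signal, fitted alone, it was -0.012, and it was -0.88 over the 12 members among them. Without krill replicates 2, 4, 5 and 7 the count was 4 lower and 0 higher, against 9.12% and 4.57% of all probe sets. The medians were then -0.37 over the 13 and -0.013 over all probe sets. With an index of the 3'/5' ratios as a covariate, in which the diets do not overlap, limma called 0 of the 13 and 0 of all probe sets, where Mlxipl stood at -2.46, Scap at -1.92 and Srebf1 at -1.86. Every krill array was lower than every control array in 3 of the 13 probe sets, those of Mlxipl, Scap (1433520_at) and Srebf2 (1452174_at), where 4.10% of all probe sets did so and 2.98% lay the other way.

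**Figure D1:**
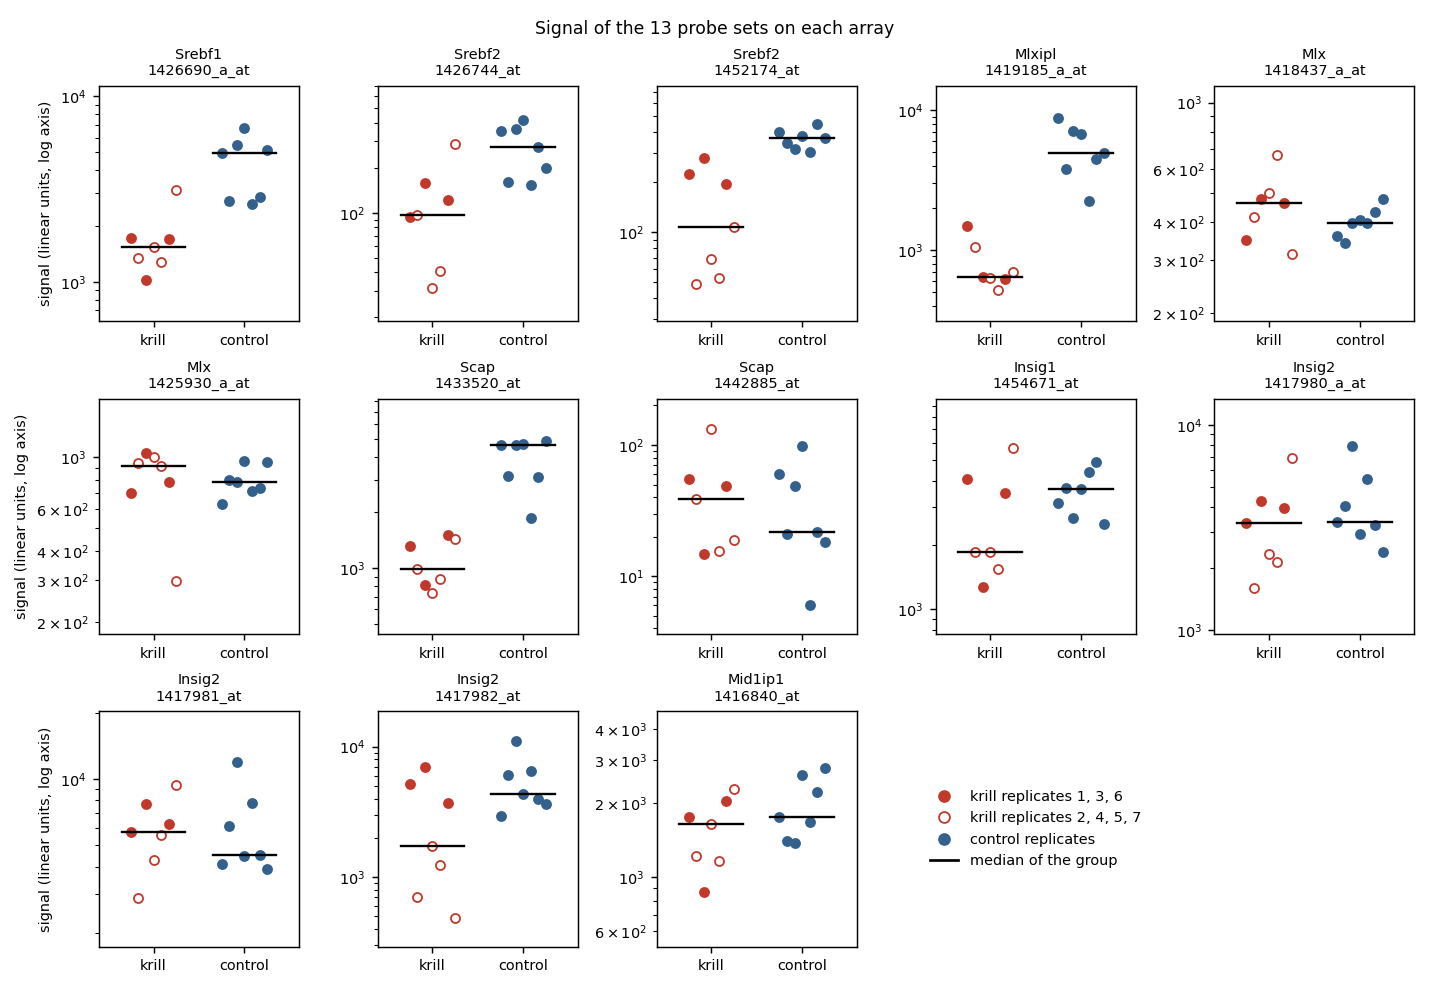
Each panel shows 1 probe set, with the signal of every array on a log axis (linear units) for krill at the left and control at the right. Open circles are krill replicates 2, 4, 5 and 7, and black lines are group medians. The diets do not overlap for Mlxipl 1419185_a_at, Scap 1433520_at and Srebf2 1452174_at, and they overlap for both Mlx and all 3 Insig2 probe sets.

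Among the transcription factors the largest difference was in Mlxipl (1419185_a_at). Krill replicates 1 to 7 had signals of 1481, 1042, 639, 633, 517, 622 and 693, and control replicates 1 to 7 had 8815, 3779, 7052, 6729, 2240, 4493 and 4947. The highest krill array was below the lowest control array, and krill replicates 3 to 7 lay between 517 and 693. The means were 804 ± 341 (SD, n = 7) in krill and 5436 ± 2228 (SD, n = 7) in control livers. The log2 change was -2.70 (SE 0.26, limma adjusted p = 1.84e-06). It was -2.55 (SE 0.34, limma adjusted p = 0.000417) without krill replicates 2, 4, 5 and 7. A single probe set stands for Mlxipl, and which of the gene's listed starts it reports on was not determined.

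Mlx, which encodes the obligate partner of ChREBP, was measured by 2 probe sets. For 1418437_a_at the krill arrays had signals of 350, 416, 479, 501, 670, 462 and 313, and the control arrays 360, 343, 398, 409, 399, 432 and 477. For 1425930_a_at the krill arrays had 702, 943, 1038, 998, 914, 783 and 297, and the control arrays 631, 801, 786, 960, 715, 741 and 951. The diets overlapped in both, with krill replicate 7 the lowest array of its diet in each. The log2 changes were 0.14 (95% confidence interval -0.26 to 0.55, limma adjusted p = 0.59) and -0.053 (-0.53 to 0.42, limma adjusted p = 0.873). The sign of the first turned with arrays centred on their medians and with spike-in scaling, and that of the second with quantile normalization. These intervals hold no change as large as that of Mlxipl.

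Srebf1 (1426690_a_at) had signals of 1729, 1340, 1023, 1547, 1286, 1697 and 3116 in krill livers and of 4969, 2731, 5456, 6721, 2616, 2874 and 5143 in control livers. Only krill replicate 7 reached the range of the controls, where replicates 2, 5 and 6 stood lowest. The means were 1677 ± 681 (SD, n = 7) in krill and 4359 ± 1616 (SD, n = 7) in control livers. Its log2 change was -1.36 (SE 0.24) at a limma adjusted p of 0.000302, and -1.49 (SE 0.28) at 0.00184 without krill replicates 2, 4, 5 and 7. One probe set stands for the gene, and the files do not separate the SREBP-1a from the SREBP-1c transcript.

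Srebf2 was measured by 2 probe sets of modest signal. For 1452174_at the krill arrays had signals of 225, 48.5, 279, 68.7, 53.1, 195 and 107, and the control arrays 402, 344, 319, 382, 304, 450 and 369. Krill replicates 2, 4, 5 and 7 were the 4 lowest arrays and lay under the receptor median of their own array, while replicates 1, 3 and 6 lay between 195 and 279, below the lowest control. For 1426744_at the krill arrays had 93.7, 97.2, 159, 31.5, 41.0, 121 and 286, and the control arrays 351, 161, 362, 416, 153, 275 and 198. Here krill replicate 7 lay above the control mean, 5 of 7 krill arrays lay below the lowest control, and 3 krill arrays lay under the receptor median. The log2 changes were -1.53 (SE 0.33, limma adjusted p = 0.00185) and -1.26 (SE 0.38, limma adjusted p = 0.0171). With those 4 krill replicates left out they were -0.62 (SE 0.20, limma adjusted p = 0.0495) and -0.98 (SE 0.32, limma adjusted p = 0.0529). The first change was thus smaller on the remaining arrays, and the call of the second probe set ended.

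Scap encodes the sterol-sensing escort of the SREBPs. Its bright probe set, 1433520_at, had signals of 1319, 991, 810, 739, 874, 1522 and 1438 in krill livers and of 4647, 3156, 4637, 4691, 1877, 3093 and 4838 in control livers. The diets did not overlap, and control replicates 2, 5 and 6 were the lowest controls, as they were for Mlxipl and Srebf1. The means were 1099 ± 321 (SD, n = 7) in krill and 3848 ± 1146 (SD, n = 7) in control livers. Its log2 change was -1.78 (SE 0.22) at a limma adjusted p of 1.27e-05, and -1.63 (SE 0.26) at 0.000839 without krill replicates 2, 4, 5 and 7. The other Scap probe set, 1442885_at, ranged from 14.8 to 133 in krill and from 6.06 to 99.0 in control livers. It lay under the receptor median on 5 krill and 4 control arrays, so its log2 change of 0.15 (95% confidence interval -0.74 to 1.05) carries little on Scap, and its sign turned with quantile normalization, median centring and spike-in scaling.

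Insig1, a membrane anchor of SCAP and itself a classical SREBP target, had signals of 4061, 1859, 1277, 1864, 1547, 3525 and 5717 in krill livers and of 3157, 3693, 2683, 3645, 4414, 4875 and 2521 in control livers (1454671_at). The krill group spread around the controls, with 4 arrays below the lowest control and 1, replicate 7, above the highest. The coefficient of variation was 58.1% in krill and 24.2% in control livers. The log2 change of -0.49 (95% confidence interval -1.06 to 0.074) did not pass (limma adjusted p = 0.175), and without krill replicate 7 it was -0.69 and passed (limma adjusted p = 0.0414). It passed also with spike-in scaling, at -1.28 (limma adjusted p = 0.0129), a scaling under which the median of all probe sets was -0.30 in place of 0.32.

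Insig2, the second anchor, was measured by 3 probe sets that did not move alike. For 1417981_at the krill arrays had signals of 5749, 2893, 7742, 4301, 5549, 6259 and 9380, and the control arrays 4137, 6097, 11905, 4480, 7790, 4541 and 3920. For 1417980_a_at the krill arrays ranged from 1600 to 6874 with a median of 3326, and the control arrays from 2410 to 7883 with a median of 3358. Both groups overlapped, and the log2 changes were -0.0068 (95% confidence interval -0.54 to 0.53) and -0.30 (-0.88 to 0.28), with limma adjusted p = 0.986 and 0.426. The third, 1417982_at, had 5204, 699, 7030, 1729, 1243, 3695 and 486 on krill arrays and 2952, 6030, 10953, 4314, 6463, 3948 and 3615 on control arrays. Krill replicates 2, 4, 5 and 7 lay below every control, and replicates 1, 3 and 6 within the control range. Its log2 change was -1.36 (SE 0.46, limma adjusted p = 0.0299), and 0.039 (limma adjusted p = 0.961) without those 4 arrays. Leaving out any 1 of krill replicates 2, 4, 5 and 7 or of control replicates 2, 3 and 5 also ended the call (limma adjusted p from 0.0509 to 0.0744), as did a fit with no trend (limma adjusted p = 0.0699). On krill replicate 7 the same gene read 9380 in 1417981_at, the highest of the diet, and 486 in 1417982_at, the lowest.

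**Figure D2:**
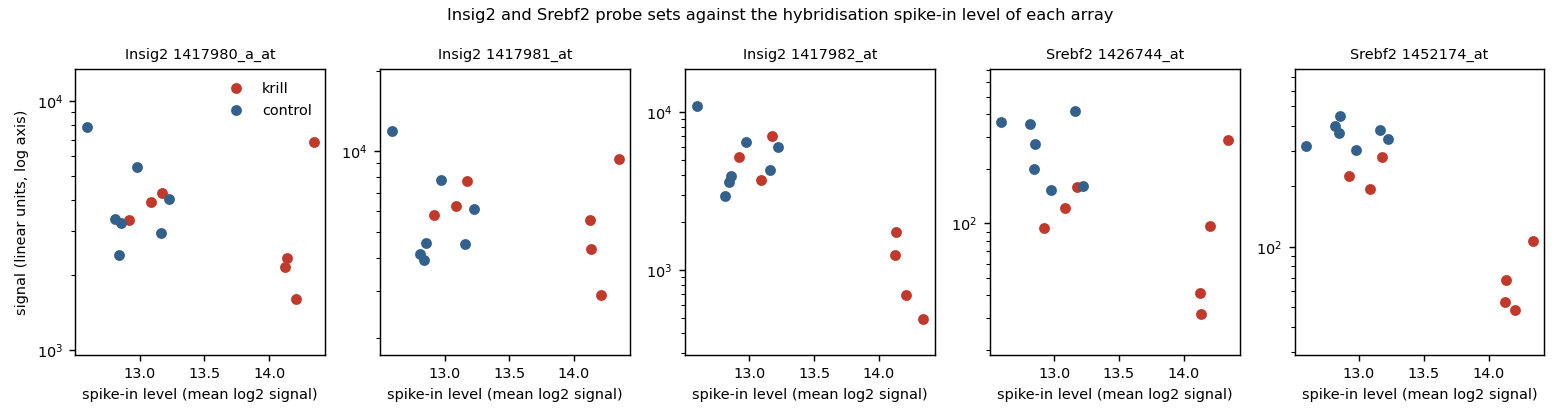
Signal of the 3 Insig2 and 2 Srebf2 probe sets on a log axis (linear units) against the hybridisation spike-in level of each array (mean log2 signal), with 1 point per array, krill in red and control in blue. The 4 krill arrays at spike-in levels of 14.1 to 14.3 are the lowest for Insig2 1417982_at and Srebf2 1452174_at, and reach the control range for Insig2 1417981_at in 3 of 4 cases.

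Mid1ip1 (1416840_at) encodes a protein that promotes the polymerisation, and so the activity, of acetyl-CoA carboxylase. Its krill signals were 1761, 1214, 866, 1651, 1161, 2048 and 2273 and its control signals 1751, 1396, 1372, 2593, 1670, 2213 and 2777. The groups overlapped, although 3 krill arrays lay below the lowest control and 0 above the highest. The log2 change was -0.34 (95% confidence interval -0.80 to 0.11, limma adjusted p = 0.234). It passed only with spike-in scaling among all alternatives run, at -1.12 (limma adjusted p = 0.0109).

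**Figure D3:**
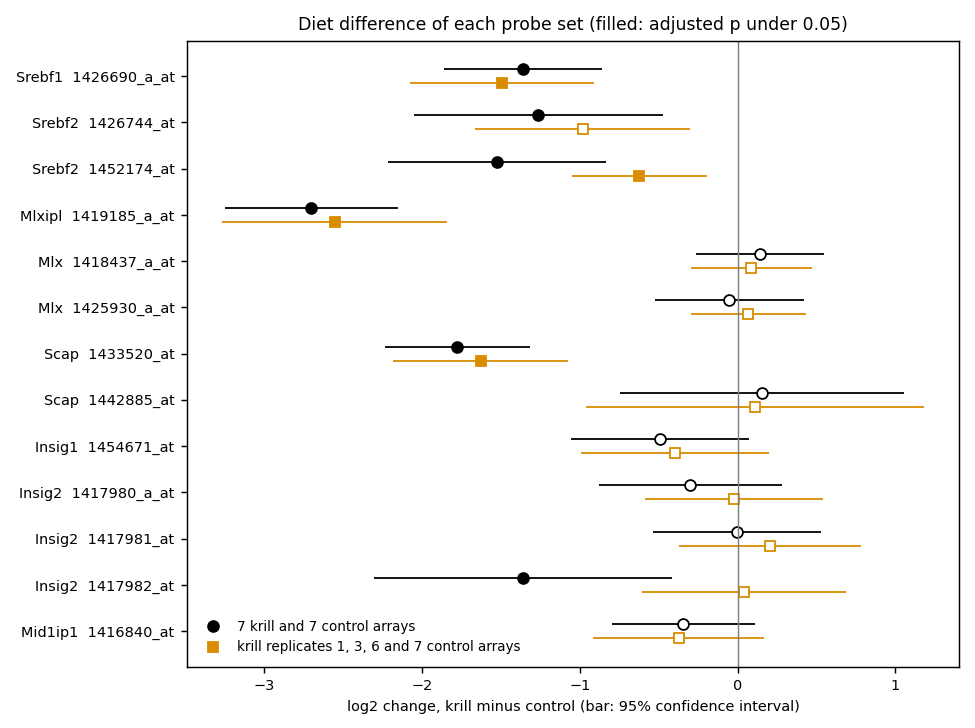
Log2 change of each probe set, krill minus control, with its 95% confidence interval (x axis), from all arrays (black circles) and without krill replicates 2, 4, 5 and 7 (orange squares). Filled symbols have a limma adjusted p under 0.05. Mlxipl, Scap 1433520_at and Srebf1 keep changes of -2.55, -1.63 and -1.49 on the smaller set, while Insig2 1417982_at moves to 0.039.

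Whether neighbours in the pathway changed unequally was tested with differences of log2 values within each array, which a single scaling factor per array barely moves, for 7 pairs of genes with the brightest probe set of each (exact permutation tests, two-sided, adjusted over the 7 pairs). Such a difference shows unequal change and says nothing about which gene is more abundant. Mlxipl fell relative to Mlx, with a log2 difference of -2.65 (SE 0.41, exact p = 0.000583, adjusted p = 0.00408), with no overlap between the diets. Mlxipl also fell relative to Srebf1, at -1.34 (SE 0.30, exact p = 0.00117, adjusted p = 0.00408), with 6 of 7 krill arrays below every control. Scap fell relative to Insig1, at -1.29 (SE 0.35, exact p = 0.00583, adjusted p = 0.0102), with 3 of 7 krill arrays below every control. The last call ended when the mean of all probe sets stood for each gene, at -0.32 (adjusted p = 0.629), where the dim Scap probe set counts equally. Over the 3 remaining krill arrays these differences were -2.62, -1.06 and -1.23 (exact permutation adjusted p = 0.0583, 0.0583 and 0.0972, where 3 arrays against 7 cannot give an unadjusted p below 0.00833).

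Srebf1 and Srebf2 could not be told apart in their change, with a difference of 0.17 (SE 0.45, exact p = 0.72, adjusted p = 0.72). It was -0.87 without krill replicates 2, 4, 5 and 7 (exact permutation adjusted p = 0.0972). The difference for Scap minus Srebf2 was -0.25 (SE 0.37, exact permutation adjusted p = 0.622) and that for Insig1 minus Insig2 was -0.48 (SE 0.39, exact permutation adjusted p = 0.329). Neither passed, and the standard errors leave room for sizeable differences either way. Mid1ip1 fell relative to Thrsp, its paralogue also called Spot14, at -1.20 (SE 0.32, exact p = 0.0035, adjusted p = 0.00816), with 6 of 7 krill arrays below every control. That call ended with quantile normalization, at -0.53 (exact permutation adjusted p = 0.0877), and without the 4 krill arrays, at -0.59 (exact permutation adjusted p = 0.0972).

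**Figure D4:**
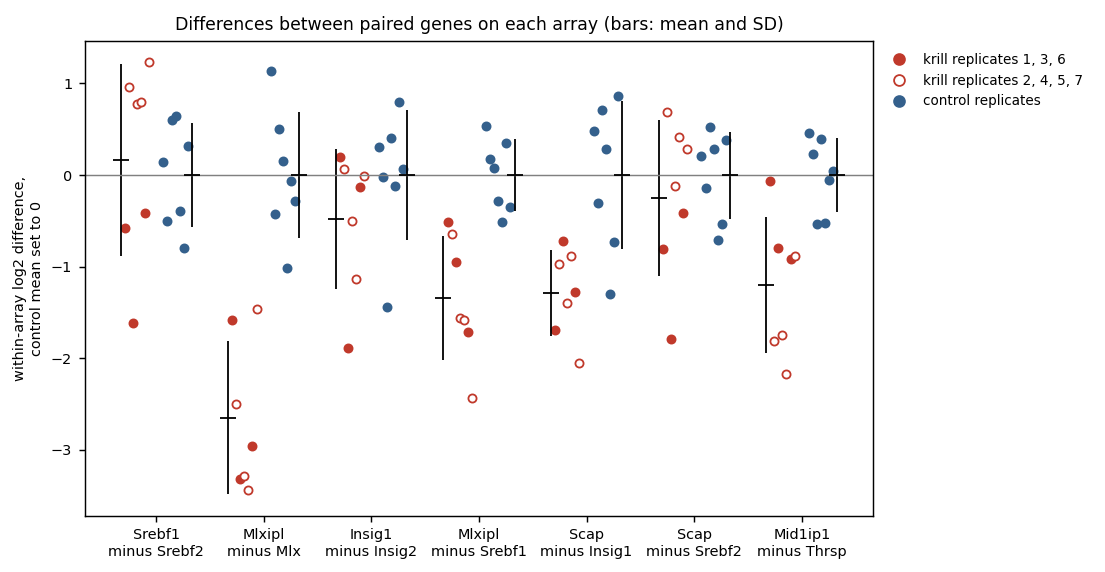
Within-array log2 difference for 7 pairs of genes (x axis), with the control mean set to 0 and 1 point per array, krill at the left of each pair and control at the right. Open circles are krill replicates 2, 4, 5 and 7, and bars are the mean and SD. The diets do not overlap for Mlxipl minus Mlx, and the diets overlap for Srebf1 minus Srebf2.

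Genes that act on SREBP cleavage, retention and turnover were next compared, with the brightest probe set of each gene. Limma called 14.3% of the 18193 genes on the array lower and 18.8% higher on this basis, with a median log2 change of 0.32. These genes include dim ones. In a fit of only the 11309 genes of higher signal, limma called 2803 lower and 2595 higher, with a median of 0.042. Over all 18193 genes without krill replicates 2, 4, 5 and 7 it called 10.4% lower and 6.83% higher, with a median of 0.021. Counts of the lists on that smaller set of arrays are to be read against these shares. Of 16 listed genes, 6 fell, 3 rose and 7 did not pass, with a median of -0.44, and on the smaller set of arrays 4 fell and 2 rose, with a median of -0.090. Mbtps1, the site-1 protease that makes the first cut in SREBPs, fell, changing by -1.42 in log2 (SE 0.23, limma adjusted p = 0.000123). Its signal was 524 ± 203 (SD, n = 7) in krill and 1381 ± 350 (SD, n = 7) in control livers, with no overlap, and 2 of its 3 probe sets were called lower. Mbtps2, the site-2 protease, had a log2 change of 0.14 (limma adjusted p = 0.589). Gsk3a and Gsk3b, kinases that mark nuclear SREBPs for degradation, changed by -1.30 (SE 0.17) and -1.60 (SE 0.22), with limma adjusted p = 1.67e-05 and 2.41e-05. The diets did not overlap for either gene, and 3 of 6 Gsk3b probe sets were called lower and 0 higher. Trib1, a scaffold of ubiquitin ligation, changed by -1.58 (limma adjusted p = 0.00535), but its 2 probe sets were called in opposite directions, and without the 4 krill arrays it stood at -0.71 (limma adjusted p = 0.0803). It lay under the receptor median on 3 krill and 0 control arrays.

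In the list of signals and factors upstream of Srebf1, 8 of 23 genes fell, 2 rose and 13 did not pass, with a median of -0.47, and on the smaller set of arrays 8 fell and 2 rose, with a median of -0.57. Nr1h3, which encodes LXR alpha, rose, changing by 0.64 in log2 (SE 0.18, limma adjusted p = 0.0108). Its signals were 2632, 3664, 3048, 3241, 2672, 3108 and 1498 in krill livers and 1416, 1965, 1672, 1520, 1927, 1977 and 1908 in control livers. In all, 6 of 7 krill arrays lay above every control, and replicate 7 lay within their range. Rxra, the dimer partner of LXR, fell, at -1.82 (SE 0.22, limma adjusted p = 1.14e-05) to 1181 ± 495 (SD, n = 7) in krill livers, against 4054 ± 942 (SD, n = 7) in control livers, although 1 of its 3 probe sets was called higher. Tsc2, a brake on the growth kinase mTOR, changed by -3.01 (SE 0.41), Med15, a Mediator subunit that SREBPs contact, by -1.92 (SE 0.36), and the insulin signalling kinase Akt1 by -1.76 (SE 0.35), with limma adjusted p = 2.33e-05, 0.000519 and 0.000756. Of the 7 krill arrays, 5 lay under the receptor median for Tsc2, 4 for Med15 and 1 for Akt1, and 0 control arrays did, so the sizes for Tsc2 and Med15 are not settled. They stood at -2.43, -1.59 and -0.86 without those 4 arrays and were called there too (limma adjusted p = 0.00153, 0.00844 and 0.00412). Only 1 of 4 Med15 probe sets and 2 of 4 Akt1 probe sets were called lower with all arrays, and 0 were called higher. Of the MYC/MAX/MLX network, which shares the MLX partner, 2 of 9 genes fell and 0 rose, with a median of -0.15. On the smaller set of arrays 0 fell and 1 rose (limma), with a median of -0.60, and 3 were lower at an unadjusted p under 0.05. Of all 45037 probe sets 11534 had such a p on that set, in either direction. Mlxip, the ChREBP paralogue MondoA, changed by -1.34 (limma adjusted p = 0.0404) and Mxi1, a MAX partner, by -0.83 (limma adjusted p = 0.0125). Without the 4 krill arrays both calls ended, at -1.41 and -0.15 (limma adjusted p = 0.0713 and 0.57), while Mxd4, another MAX partner, stood at 0.73 and passed (limma adjusted p = 0.0264). Mlxip lay under the receptor median on 4 krill and 0 control arrays, so its size is not settled either. Mxd1, a further MAX partner, which did so on 5 krill and 0 control arrays, was at -0.96 and did not pass with all arrays (limma adjusted p = 0.0562).

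Among 19 lipogenic targets of SREBP-1 and ChREBP, Insig1 and Mid1ip1 included, 7 fell, 1 rose and 11 did not pass, with a median of -0.49. On the smaller set of arrays 5 fell and 0 rose, with a median of -0.40. By the brightest probe set of each gene, the largest changes with a call were in the desaturases Fads2 and Fads1 and in Dgat2, a triglyceride-forming acyltransferase. They were -2.10 (SE 0.24), -2.15 (SE 0.32) and -1.69 (SE 0.29), with limma adjusted p = 8.06e-06, 5.44e-05 and 0.000199. The diets did not overlap for these 3 genes, and Dgat2 stood at -0.88 without krill replicates 2, 4, 5 and 7 (limma adjusted p = 0.00448). All 3 Fads2 probe sets were called lower, but the other Fads1 probe set stood at -0.20 and was not called. Acaca and Acacb, which encode the acetyl-CoA carboxylases that MID1IP1 acts on, changed by -0.91 (SE 0.32) and -1.33 (SE 0.47), with limma adjusted p = 0.0377 and 0.0373, and stood at -1.36 and -1.61 without those arrays (limma adjusted p = 0.0145 and 0.0311). The other probe sets of Acaca and Acacb were not called, at -0.59 and -0.024. The brightest Acacb probe set lay under the receptor median on 3 krill and 0 control arrays. Thrsp, the one gene called higher, was at 0.86 (limma adjusted p = 0.031) and stood at 0.22 without them (limma adjusted p = 0.707). Aacs, an acetoacetyl-CoA synthetase, was at -0.96 (limma adjusted p = 0.0102), and its call ended without them, at -0.73 (limma adjusted p = 0.108). Fasn, fatty acid synthase, was at -1.12 (limma adjusted p = 0.0133), and its call ended likewise, at -1.25 (limma adjusted p = 0.057). The brightest Scd1 probe set did not pass, at 0.60 (limma adjusted p = 0.0893), while its other probe set changed by -3.03 (limma adjusted p = 1.19e-05), and by -1.97 on the smaller set of arrays (limma adjusted p = 0.000521). Among 13 glycolytic and other targets of ChREBP, Mlxipl included, 4 fell, 1 rose and 8 did not pass, with a median of -0.44. On the smaller set of arrays 3 fell and 1 rose, with a median of -0.37. All 3 probe sets of Pklr, liver pyruvate kinase and the best known ChREBP target, were called lower, at -1.26, -1.43 and -2.06, and on the smaller set of arrays they were called too, at -1.18, -1.02 and -1.34 (limma adjusted p = 0.00143, 0.00377 and 0.000639). Tkfc, a fructose pathway kinase, changed by -1.26 (SE 0.24, limma adjusted p = 0.000678) and Khk, fructokinase, by 1.37 (SE 0.24, limma adjusted p = 0.000233), with no overlap between the diets in either. Khk stood at 0.88 on the smaller set of arrays (limma adjusted p = 0.00592).

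Of 20 sterol targets of SREBP-2, Srebf2 and Insig1 included, 5 fell, 2 rose and 13 did not pass, with a median of -0.16. With the 4 krill replicates left out, 2 fell and 2 rose, and the median was 0.22, where that of all genes was 0.021. The genes that rose were Idi1, an isomerase of the mevalonate pathway, and Cyp51, lanosterol demethylase. Idi1 had signals of 4389, 3383, 5047, 7112, 6537, 11526 and 13764 in krill livers and of 1894, 2630, 1532, 2639, 4985, 4075 and 3997 in control livers. The highest control was exceeded by 5 krill arrays, and the log2 change was 1.20 (SE 0.29, limma adjusted p = 0.00461). Cyp51 was at 0.76 (SE 0.21, limma adjusted p = 0.00929) and Ebp, a sterol isomerase, at -0.56 (limma adjusted p = 0.0186). The call of Ebp ended without those arrays, at -0.24 (limma adjusted p = 0.353). Hmgcs1, HMG-CoA synthase, had a log2 change of 0.39 (limma adjusted p = 0.282), and 0 of its 5 probe sets passed. Of the 4 genes listed as partners of Mid1ip1, Thrsp rose, Acaca and Acacb fell, and Mid1, a ubiquitin ligase of microtubules, had a log2 change of 0.54 (limma adjusted p = 0.444), although 1 of its 3 probe sets was called higher. On the smaller set of arrays 2 of the 4 fell and 0 rose.

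**Figure D5:**
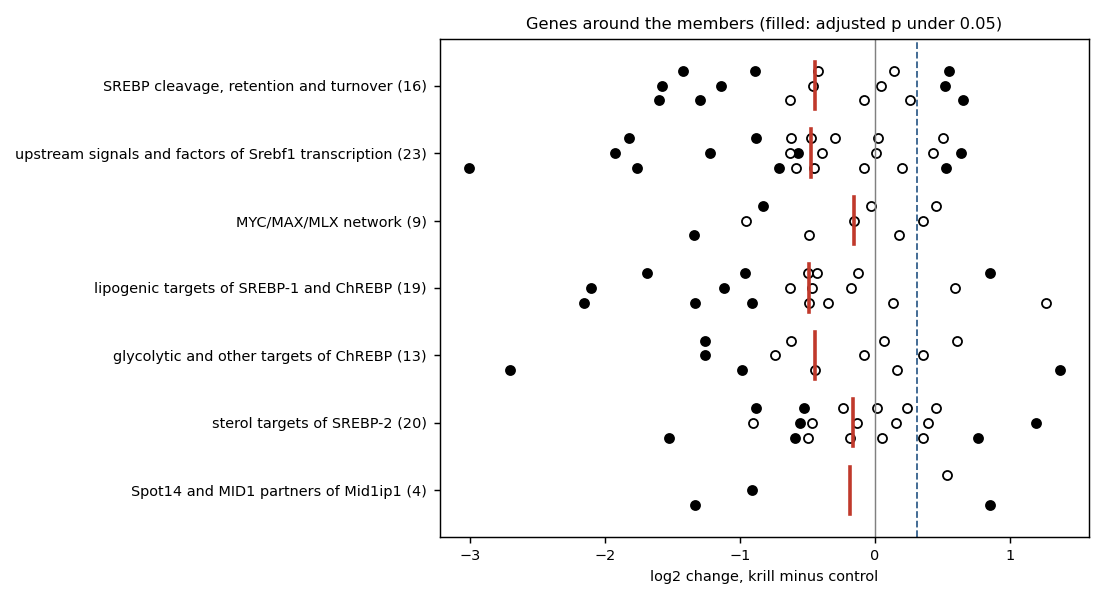
Log2 change of each gene, krill minus control (x axis), by list, with the number of genes in parentheses and the lists running down the page. Filled circles have a limma adjusted p under 0.05, red bars are list medians and the dashed line is the median of all genes at 0.32. Over the 11309 genes of higher signal, fitted alone, the median was 0.042. List medians lie between -0.49 and -0.15.

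The genes most like 3 of the transcription factors were found by how arrays deviated together from their diet means, over 14 arrays and 11309 genes of higher signal, as a description with no test. Members, and symbols that end in Rik or begin with Gm, were left out of the ranking. The genes found share depth, scaling and RNA quality with the members. For Srebf1 the genes most like it were Garem1, Grn and Clcn7, with Pearson's r of 0.944, 0.915 and 0.914. For Mlxipl they were Wdtc1, Pdcd6ip and Tbl3, at 0.92, 0.908 and 0.876, and each was at 0.842 or more in krill and in control arrays taken apart. For Srebf2 they were Actr1a, Usp8 and Pcsk7, at 0.959, 0.957 and 0.951, but Pcsk7 was at 0.989 among krill and at -0.238 among control arrays. The krill arrays differ among themselves in spike-in level, and its part in the likeness was not tested.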

How the data were processed

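Linear signal intensity per probe set was deposited by the authors for 14 liver arrays, made with MAS5 per the submitters' processing notes (version not given in the sources used here). The trimmed mean of the deposited intensity, without the lowest and highest 2% of probe sets, was 500 on every array. Such scaling lifts every value, background too, where labelled RNA was weak. Sample titles gave the groups and replicate numbers.

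Of 45101 probe sets, 64 were controls. The platform table lists 34945 with 1 gene symbol, 932 with several and 9160 with none. Values were analysed as log2(signal + 16), which understates folds at low signal. All 45037 probe sets other than controls were fitted with limma 3.58.1 in R 4.3.3 (lmFit, eBayes with a trend), with no covariate, Benjamini-Hochberg adjustment and a threshold of 0.05. In lists and pairs each gene was read from its brightest probe set. Quality measures and pairs were tested by exact permutation in Python 3.11.15. The limma procedure was tested on simulated data of 7 and 7 arrays, with independent noise. It called 34 of 100 probe sets changed by 1 on the log2 scale and 89 of 100 changed by 2. Of 44837 unchanged probe sets it called 5. A change of 1 or less can thus fail to pass.

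The members, gene lists and alternatives were chosen with earlier results of these data known, among them the outlying spike-in levels of krill replicates 2, 4, 5 and 7. Named were all members, from each list up to 4 genes with the smallest p plus a fixed panel, and the 3 genes most like Srebf1, Srebf2 and Mlxipl. The lists without those 4 arrays were an alternative added after the data were seen. Promoter windows came from a RefSeq table, and the position of each probe set in its transcript was not determined.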

Additional observations from a re-analysis of the deposited data

Results flagged for a closer look

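In all, 2 of 40 groups of 7 arrays, over the 13 probe sets and 7 pairs, held an array far from the others, and chance flags about 1 in 20 such groups. Krill replicate 7 stood at a signal of 297 for Mlx 1425930_a_at, far below the other krill arrays. Control replicate 3 stood at -1.44 for Insig1 minus Insig2, far below the other control arrays.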

How the results depend on the processing

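Mlxipl, Scap 1433520_at and Srebf1 kept their direction under every alternative fit run, and lost their calls only with the 3'/5' index as a covariate, at -2.46, -1.92 and -1.86. In that fit, limma called 0 of the 13 probe sets and 0 of all 45037, with 3 and 4192 at an unadjusted p under 0.05, and the index of the diets did not overlap. With the spike-in level as a covariate 3 of the 13 were called lower, where limma called 1899 of all 45037 lower and 874 higher. Leaving out 1 array at a time gave 5 to 6 of the 13 called lower and 0 higher. Over all 45037 it gave 4770 to 6412 lower and 5123 to 10547 higher. For Mlx 1418437_a_at the change turned to -0.26 with median centring and -0.61 with spike-in scaling. For Mlx 1425930_a_at it turned to 0.14 with quantile normalization, 0.032 with array weights, 0.098 with the spike-in covariate, 0.60 with the index and 0.068 without krill replicates 2, 4, 5 and 7, and ranged from -0.13 to 0.17 with 1 array left out. The dim Scap probe set turned to -0.20, -0.25 and -0.33 with quantile normalization, centring and spike-in scaling, with a range of -0.091 to 0.36 over single arrays left out. Insig2 1417981_at turned to 0.0040, 0.24, 0.32 and 0.21 with array weights, the spike-in covariate, the index and without the 4 krill arrays, with a range of -0.13 to 0.17. Insig2 1417982_at turned to 0.22, 1.14 and 0.039 with the last 3 of these. The cause was not tested.

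Among pairs, Srebf1 minus Srebf2 turned to -0.13 with a pseudocount of 64 and -0.87 without the 4 arrays, with a range of -0.013 to 0.46. Scap minus Srebf2 turned to 0.58 and Insig1 minus Insig2 to 0.064 for means of probe sets, where Scap minus Insig1 was -0.32, and the first ranged from -0.41 to 0.0064. Without the 4 arrays Mlxipl minus Mlx, Mlxipl minus Srebf1, Scap minus Insig1 and Mid1ip1 minus Thrsp were -2.62, -1.06, -1.23 and -0.59 and missed the threshold with 3 arrays. Mid1ip1 minus Thrsp was -0.53 with quantile normalization. Without those arrays 0 genes of the MYC/MAX/MLX network fell and 1 rose, 0 lipogenic targets rose, 2 sterol targets fell, 0 partners of Mid1ip1 rose and Mid1 turned to -0.12 (limma). At an unadjusted p under 0.05 there, 3 of 9 genes of the MYC/MAX/MLX network were lower and 1 was higher. Of 19 lipogenic targets 8 were lower and 0 higher, and of 4 partners of Mid1ip1 2 were lower and 0 higher. Those 2, Acaca and Acacb, are also among the 8. Of all 45037 probe sets 11534 had such a p there, in either direction, and the share by gene and direction was not computed.

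Samples of the diets share only a replicate number: deviations of same-numbered arrays correlated between -0.0281 and 0.104, and 2 of 7 krill arrays fitted their own number best. With the replicate number as a block, Scap minus Insig1 was -1.29 and missed the threshold (exact permutation adjusted p = 0.0547). With that block limma called 6 of the 13 probe sets lower, as without it, and 5611 of all 45037 lower and 7115 higher. Spike-in scaling called Insig1 at -1.28 and Mid1ip1 at -1.12.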
